A study of Rattus norvegicus with 6 samples.

Results

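Mertk and the genes around it in the uptake of photoreceptor outer segments were read in a gene table of rat retinal RNA. The 10 genes are the TAM receptor genes Mertk, Axl and Tyro3, the ligand genes Gas6 and Pros1, the bridging protein gene Mfge8, the integrin genes Itgav and Itgb5, and the tubby family genes Tub and Tulp1. They were chosen by name, as rows whose gene symbol equals one of these, and each matched exactly 1 of the 26406 rows.

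The study took neural retina at postnatal day 60 from 6 rat samples in 3 groups of 2. These were Royal College of Surgeons (RCS) rats with human neural progenitor cells injected under the retina at postnatal day 21, RCS rats with a sham operation on that day, and Long Evans rats, a wild-type strain, with the same sham operation. Sham eyes received the medium that carries the cells, and all groups gave the same part of the retina, that which held the graft or its counterpart. RCS rats lose their photoreceptors because of an inherited defect in Mertk, and the labels give no further genotype. They do not say whether the samples of a group are separate animals.

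The table analysed here holds a single value per gene and names no sample, so all values below come from 1 library or 1 pool and are tied to no strain, operation or graft. They compare genes with one another within this RNA. There are no replicates, and no difference between RCS and Long Evans retina is reported. Levels are in FPKM, fragment numbers scaled by transcript length and by the mapped total, so that genes are compared per length. The range after each FPKM is the pair of confidence bounds that the authors deposited, whose level is not given in the sources used here. Bounds taken as 2 standard errors of counting imply a fragment number for each gene, which is given beside the levels. All intervals cover this deposited error only, not the spread between animals or libraries, which is unknown.

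The retinal pigment epithelium (RPE) engulfs the tips that photoreceptors shed every day. Spent membrane shows phosphatidylserine, a lipid that bridging proteins bind on one side while binding a receptor of the phagocyte on the other. The integrin pair alpha v beta 5, made from Itgav and Itgb5, holds the particle through Mfge8, and the receptor kinase Mertk, bound by Gas6 or Pros1, drives its ingestion. Tubby and Tulp1 were described as further Mertk ligands in mouse. In rats without working Mertk, debris gathers under the retina and photoreceptors die.

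Levels spanned from Axl at 0.80 FPKM to Tulp1 at 316 FPKM, and 9 of the 10 genes reached 1 FPKM. Among all rows of the table, 52.6% reached that level. The median of the 10 genes was 13.0 FPKM, beside 1.39 FPKM over all rows and 5.57 FPKM over the 18154 rows above 0. The receptors and Pros1 lay at the low end, and the tubby genes, Mfge8 and Gas6 at the high end, as the plot of levels by gene shows. In whole-tissue RNA such as this, few cells with much of a transcript and many cells with little of it cannot be told apart.

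**Figure D1:**
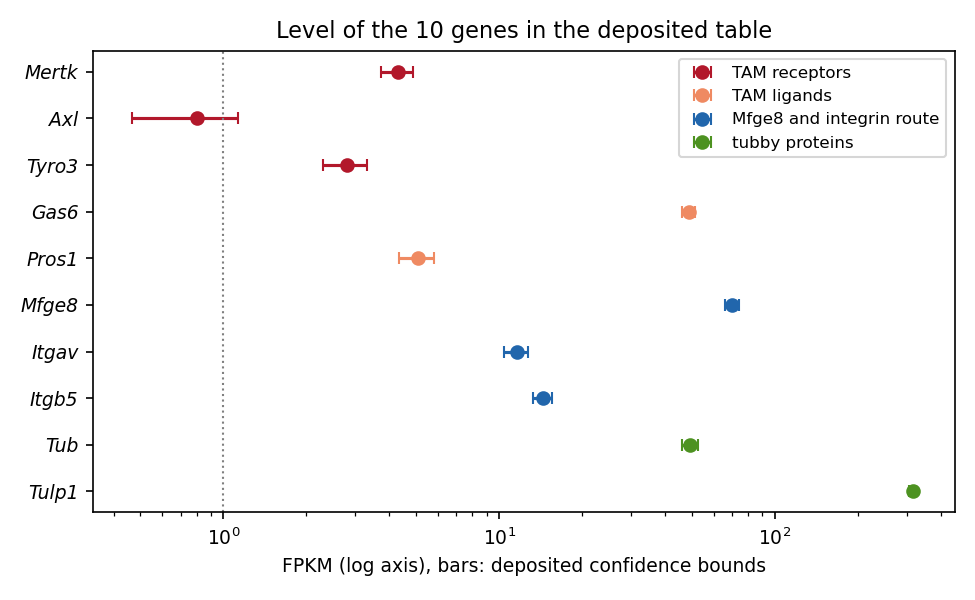
FPKM of the 10 genes (log axis), coloured by role, with the deposited confidence bounds as bars and a dotted line at 1 FPKM. Axl, at 0.80 FPKM, is the one gene left of the line, and Tulp1, at 316 FPKM, lies furthest right.

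Mertk encodes the receptor tyrosine kinase that gives the engulfment signal in RPE cells, and macrophages and glia use it as well. It stood at 4.31 FPKM (3.73 to 4.89), on an implied 223 fragments. Its row, ENSRNOG00000017319, runs on chromosome 3 between 128669942 and 128777039 (build rn5, as for all positions here). The value is one figure for the whole gene and does not resolve the part of the transcript that the RCS defect affects. With 10097 rows above it, Mertk lay higher than 61.8% of all rows, but higher than only 44.4% of the rows above 0.

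Tyro3, the relative of Mertk that is best known from neurons, stood at 2.81 FPKM (2.30 to 3.32), on 121 implied fragments. Its row, ENSRNOG00000005531, lies on the same chromosome, at 118146800 to 118165787. Axl, the member best known from inflamed and vascular tissue and from dendritic cells, was listed at 0.80 FPKM (0.47 to 1.13), on 23 implied fragments. It is at chromosome 1, 83812118 to 83840542 (ENSRNOG00000020716). The deposited bounds of the 3 receptors did not overlap.

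Mertk made up 54.4% (95% counting interval 49.2% to 59.7%) of the summed FPKM of the 3 receptors, Tyro3 35.5% (30.5% to 40.5%) and Axl 10.1% (6.27% to 13.9%). Mertk was 1.53 times Tyro3 (1.23 to 1.91) and 5.39 times Axl (3.51 to 8.28). The ratio to Axl was 9.67 by implied fragments, which are not divided by length, and 2.95 with 1 added to each FPKM. Set against the other two receptors together, Mertk was 1.19 times their sum (0.97 to 1.48), an interval that includes 1. Tyro3 was 3.51 times Axl (2.25 to 5.48), or 2.12 with 1 added to each FPKM. Axl rests on the fewest fragments of the 10 genes, and its bounds reach 41.6% of the value to each side, against 13.4% for Mertk.

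Gas6 and Pros1 are secreted proteins that depend on vitamin K to bind phosphatidylserine, and Pros1 is also the anticoagulant protein S. Gas6 stood at 48.7 FPKM (46.1 to 51.3), on 1399 implied fragments (ENSRNOG00000018233, chromosome 16, 80701561 to 80732410). Pros1 was at 5.08 FPKM (4.34 to 5.82), on 190 implied fragments (ENSRNOG00000048723, chromosome 7, 1199864 to 1279990). Gas6 was thus 9.59 times Pros1 (8.24 to 11.2) and made up 90.6% of the FPKM of these ligands (89.3% to 91.9%). In RefSeq genes of assembly GRCr8, Pros1 sits on another chromosome than in the deposited table. Of its neighbours in the deposited table, Arl13b also lies near it in GRCr8 and Hsd17b6 does not.

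The ligands stood above their receptors. The sum of Gas6 and Pros1 was 53.8 FPKM and that of Mertk, Axl and Tyro3 was 7.92 FPKM, a ratio of 6.79 (6.05 to 7.62), or 4.33 by implied fragments. Gas6 alone was 11.3 times Mertk (9.81 to 13.0), or 6.27 by implied fragments. Pros1 was 1.18 times Mertk (0.97 to 1.43), so their order is not resolved at this depth.

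Mfge8 encodes the glycoprotein that links phosphatidylserine to alpha v integrins through its RGD motif. At 69.97 FPKM (66.1 to 73.8) and 1310 implied fragments, Mfge8 had the highest FPKM of the 3 bridging protein genes (ENSRNOG00000017510, chromosome 1, 141814240 to 141829651). It held 56.5% of their summed FPKM (54.7% to 58.3%), Gas6 39.4% (37.6% to 41.1%) and Pros1 4.10% (3.52% to 4.68%). Mfge8 was 1.44 times Gas6 per length (1.33 to 1.55), although by implied fragments the ratio was 0.94. The table gave 18.7 fragments per FPKM for Mfge8 and 28.7 for Gas6, a figure that grows with transcript length. Mfge8 was 13.8 times Pros1 (11.8 to 16.0), or 6.90 by implied fragments.

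The integrin subunits stood below Gas6 and above Pros1 and the TAM receptors, with Itgav at 2.28 times Pros1 (1.92 to 2.71). Itgb5, the beta subunit of the outer segment receptor, was at 14.4 FPKM (13.3 to 15.6), on 618 implied fragments (ENSRNOG00000001795, chromosome 11, 73146148 to 73261215). An unnamed row within the span of Itgb5 was listed at 7.2e-07 FPKM. Itgav, the alpha v subunit that pairs with several beta subunits, was at 11.6 FPKM (10.4 to 12.7), on 417 implied fragments (ENSRNOG00000004912, chromosome 3, 77644078 to 77727811). Itgav was 0.80 times Itgb5 (0.71 to 0.91), although Itgav serves other beta subunits too.

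Both subunits lay above Mertk. Mertk was 0.30 times Itgb5 (0.26 to 0.35) and 0.37 times Itgav (0.32 to 0.44). The sum of Itgav and Itgb5, 26.0 FPKM, was 3.28 times the sum of the TAM receptors (2.91 to 3.71). Mfge8 was 4.85 times Itgb5 (4.40 to 5.33), or 2.12 by implied fragments.

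Of 7 other integrin genes on the list of partners, 5 reached 1 FPKM and the median level was 1.49 FPKM. Itgb1, at 11.7 FPKM, stood above Itga3, an alpha subunit of laminin receptors, at 7.63 FPKM (6.36 to 8.90). Beta subunits that can pair with alpha v were set beside Itgb5, with Itgb8, Itgb6 and these ratios chosen after the values were seen. Itgb1, the common beta subunit of matrix receptors, had bounds of 10.7 to 12.8 FPKM, and Itgb5 was 1.23 times Itgb1 (1.10 to 1.39). Itgb8, a subunit known for the activation of latent TGF-beta, was at 1.69 FPKM (1.23 to 2.16), and Itgb5 was 8.52 times Itgb8 (6.45 to 11.3). Itgb6, an epithelial subunit, was at 0.13 FPKM on 4 implied fragments, and Itgb3, the beta subunit of platelets and osteoclasts, was listed at 0. Of the summed FPKM of these 5 beta subunits, Itgb5 held 51.6% (48.8% to 54.5%) and Itgb1 41.9% (39.0% to 44.7%).

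**Figure D2:**
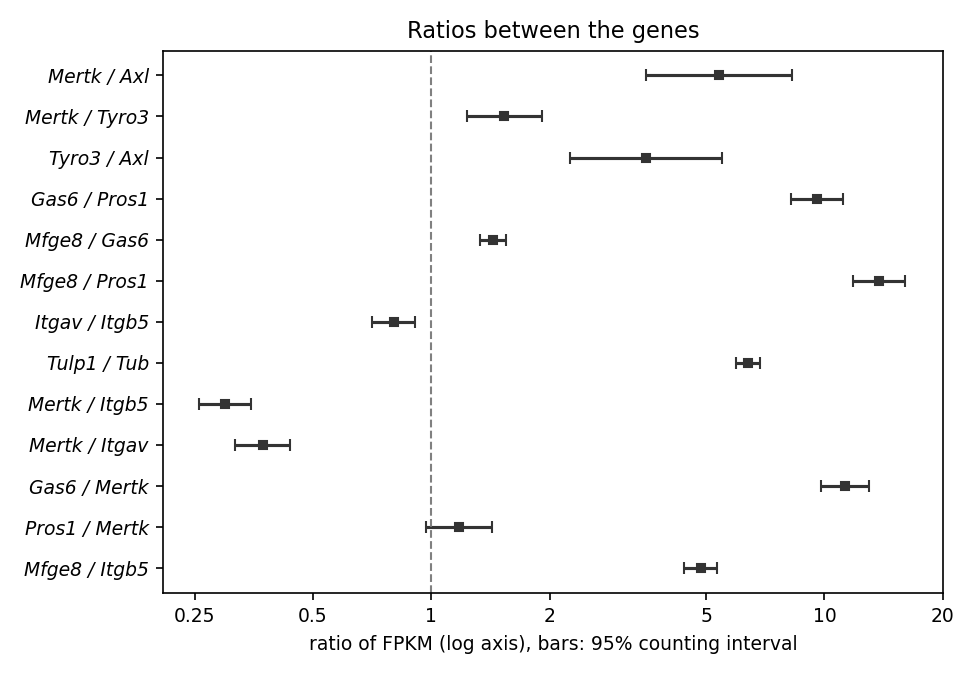
Ratios of FPKM for the 13 pairs (first-named gene over second, log axis), with 95% counting intervals as bars and a dashed line at 1. The interval of Pros1 over Mertk crosses the line, and those of the other 12 pairs do not.

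Tulp1 encodes a tubby-like protein of photoreceptors that moves membrane proteins to the outer segment, and its loss causes retinal degeneration in humans and mice. It had the highest level of the 10 genes, 316 FPKM (308 to 324), on 6176 implied fragments (ENSRNOG00000000507, chromosome 20, 10132031 to 10143932). Only 95 of the 26406 rows were higher. Tulp1 held 60.4% of the summed FPKM of the 10 genes (59.5% to 61.3%), where Mertk held 0.82% (0.72% to 0.93%), or 1.97% by implied fragments. It was 0.050 times the rod transducin gene Gnat1 (0.049 to 0.051), which stood at 6316 FPKM (this pair was chosen after the values were seen).

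Tub, the founding tubby gene, whose mutation in mice brings obesity with loss of retinal and inner ear cells, was at 49.4 FPKM (46.0 to 52.8), on 834 implied fragments. Its row, ENSRNOG00000046566, is at chromosome 1, 180597530 to 180615868. Tulp1 was 6.39 times Tub (5.94 to 6.87). Tub and Gas6 differed by less than their counting error, with a ratio of 1.01 (0.93 to 1.10).

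The rest of the tubby family was lower than Tub. Tulp3, which carries receptors into cilia, was at 12.6 FPKM (8.49 to 16.7) on 38 implied fragments. Tulp4 was at 11.2 FPKM (10.3 to 12.1) on 610 implied fragments. Tub was 3.93 times Tulp3 (2.83 to 5.44) and 4.42 times Tulp4 (3.98 to 4.91), both pairs chosen after the values were seen. With 834 implied fragments for Tub, its gap to Tulp4 was smaller by fragments. The figure for Tulp3, 37.8 before rounding, is not near a whole number and may not be its fragment count. Tub and Tulp3 are therefore not compared by fragments. Tulp2, a gene known mainly from testis, was at 0.059 FPKM on 1 implied fragment. Tulp1 made up 81.2% of the FPKM of the 5 tubby genes (80.0% to 82.3%) and Tub 12.7% (11.9% to 13.5%).

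In order of level the genes ran Tulp1, Mfge8, Tub, Gas6, Itgb5, Itgav, Pros1, Mertk, Tyro3 and Axl. Of the 9 pairs of neighbours in this order, Tub with Gas6 and Pros1 with Mertk did not differ beyond their counting error. The largest step was from Tulp1 to Mfge8, at 4.51-fold (4.25 to 4.79), although its interval lies within that of the step from Tyro3 to Axl. The plot of rank shows 4 genes among the 1203 highest rows, and the 3 receptors with Pros1 at ranks from 9454 to 14304.

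**Figure D3:**
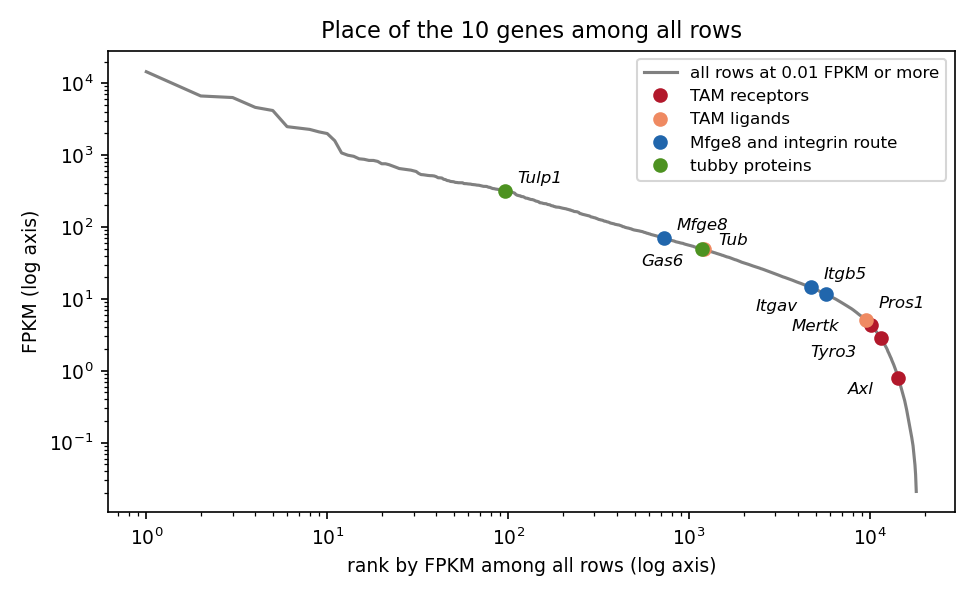
FPKM against rank among all 26406 rows (both axes log), with all rows above 0.01 FPKM as a grey line and the 10 genes as points coloured by role. Tulp1 lies at rank 96, Mfge8, Tub and Gas6 between ranks 723 and 1203, and Mertk at rank 10098.

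The TAM route was then set beside other receptors of dying cells and debris. Of 14 such genes, 6 reached 1 FPKM, 2 were listed at 0 (Timd4 and Havcr1, phosphatidylserine receptors of the TIM family) and the median was 0.56 FPKM. The highest were Scarb1, a lipoprotein receptor, at 86.4 FPKM (81.2 to 91.7) and Scarb2, a lysosomal membrane protein, at 25.2 FPKM (23.0 to 27.3). Mertk was 0.050 times Scarb1 (0.043 to 0.058), a pair chosen after the values were seen.

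The following receptors were named after their values were seen. Mertk was 0.43 times Lrp1 (0.37 to 0.49), a large scavenger receptor at 10.02 FPKM, and 0.82 times Megf10 (0.68 to 0.98), a glial engulfment receptor at 5.27 FPKM. Cd36, a scavenger receptor that also takes part in outer segment uptake by RPE cells, was at 0.23 FPKM (0 to 0.47), below Mertk. The microglial receptor gene Trem2 was at 0.51 FPKM on 6 implied fragments.

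All 11 genes of other bridging, "eat-me" or "don't eat-me" molecules reached 1 FPKM, with a median of 9.75 FPKM. Calr, an endoplasmic reticulum chaperone that can appear on dying cells, stood at 142 FPKM (138 to 147). Sirpa, the receptor of the inhibitory signal Cd47, was at 27.1 FPKM (25.5 to 28.6). Edil3, the nearest relative of Mfge8, was at 24.4 FPKM with bounds of 6.34 to 42.5, which imply 7.30 fragments. That figure is not near a whole number, so it may not be the fragment count of Edil3. Scarb2, at a like level, had bounds of 23.0 to 27.3 on 552 implied fragments. Mfge8, on 1310 implied fragments, was 2.87 times Edil3 (1.39 to 5.93) per length. Because of the uncertain figure for Edil3, this ratio is not given by fragments. Edil3, this ratio and Lgals3, a galectin described as a Mertk ligand, at 3.49 FPKM (2.44 to 4.54), were picked after their values were seen.

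Of 22 genes for the signal and the cytoskeleton of engulfment, 19 reached 1 FPKM, with a median of 10.5 FPKM. Rhoa, a GTPase of actin control, was at 80.2 FPKM (76.2 to 84.2) and the tetraspanin gene Cd81, which has been tied to outer segment binding in RPE cells, at 75.1 FPKM (70.6 to 79.5). Ptk2, the focal adhesion kinase that acts between alpha v beta 5 and Mertk, was at 9.18 FPKM (8.35 to 10.01), and Rac1, the GTPase of the engulfing cup, at 58.1 FPKM (52.4 to 63.7). Myo7a, the motor that moves phagosomes in RPE cells, was at 0.44 FPKM (0.30 to 0.59). Ptk2, Rac1 and Myo7a were named after their values were seen.

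All 6 genes of the vitamin K cycle and of receptor shedding reached 1 FPKM, with a median of 5.81 FPKM. Adam10, a sheddase, was at 12.1 FPKM (10.9 to 13.3), and Vkorc1, which recycles vitamin K, at 8.12 FPKM (5.99 to 10.3). Ggcx, the carboxylase that makes Gas6 and Pros1 able to bind lipid, was at 3.20 FPKM (2.50 to 3.90), and Adam17, which cleaves Mertk from the cell surface, at 4.72 FPKM (4.09 to 5.35). Ggcx and Adam17 were also named after their values were seen.

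**Figure D4:**
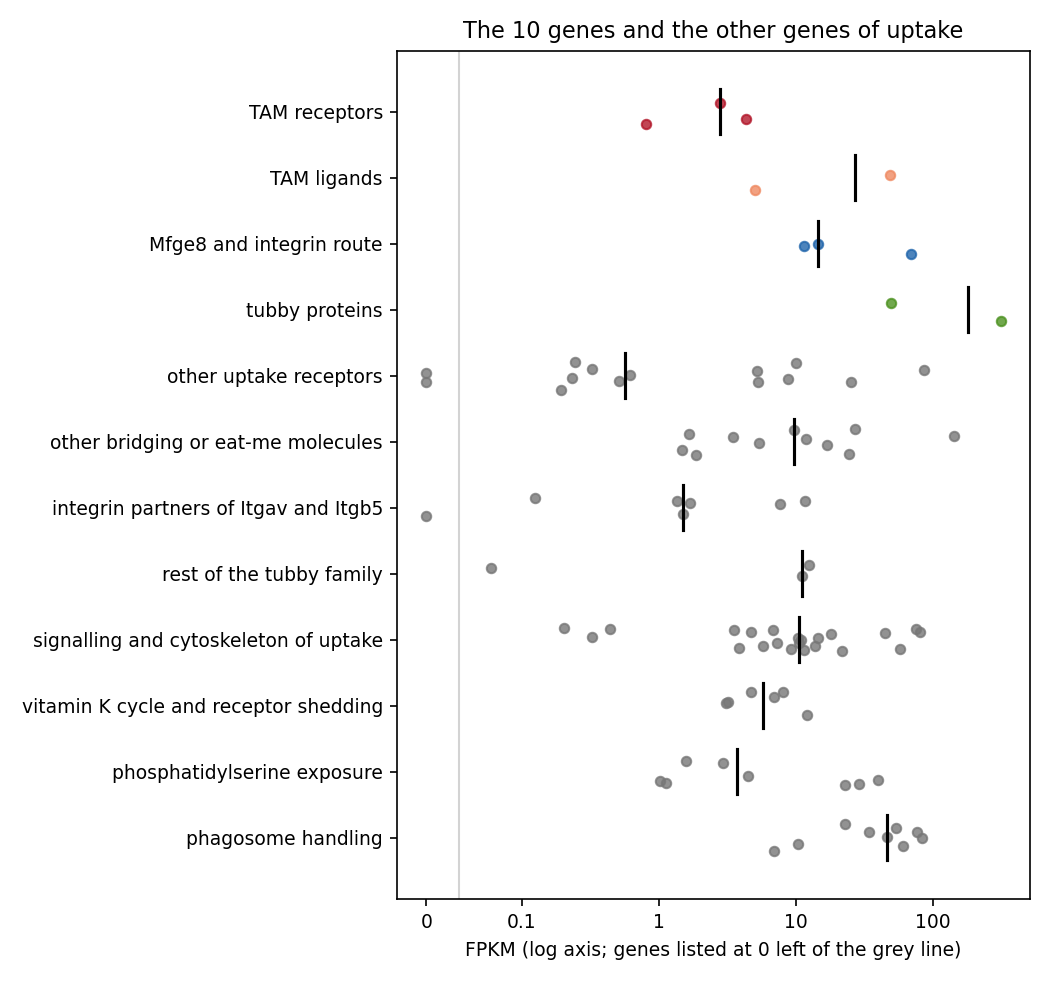
FPKM (log axis) of each gene in the 4 role groups of the 10 genes (coloured) and in the 8 lists of other genes of uptake (grey), with black bars at the medians and genes listed at 0 left of the grey line. Median levels were 2.81 FPKM for the TAM receptors and 0.56 FPKM for the other uptake receptors.

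Markers of several cell types were read to place the levels, although this RNA assigns none of the genes to a cell type. The 7 rod markers, from 518 to 6316 FPKM, and the 5 Müller glia markers, from 27.9 to 617 FPKM, all lay above Mertk, and both cell types belong to the labelled tissue. The highest on the rod list were Gnat1 at 6316 FPKM and Rcvrn (recoverin) at 2372 FPKM. Those on the Müller glia list were Glul at 617 FPKM and Dkk3 at 318 FPKM. All 9 markers of bipolar, amacrine and ganglion neurons reached 1 FPKM, and their median was 59.3 FPKM. The highest of them were Calb2 (calretinin) at 181 FPKM and Sncg (gamma-synuclein) at 144 FPKM. Of 8 RPE markers, 7 reached 1 FPKM, with a sum of 226 FPKM of which Ttr, also made elsewhere in the eye, gave 152 FPKM and Rgr, an opsin-like gene that Müller glia also express, 24.0 FPKM. Rpe65, the RPE isomerase, stood at 20.7 FPKM (18.8 to 22.5) and Best1, an RPE channel, at 0.27 FPKM (0.050 to 0.49). Mertk was 0.21 times Rpe65 (0.18 to 0.24). Rpe65, Best1 and this ratio were picked after the values were seen. The rest of the list was nearer to Mertk, with Tyrp1 at 14.2, Rdh5 at 5.35, Pmel at 4.94 and Lrat at 3.94 FPKM. The deposited bounds of Rdh5, Pmel and Lrat overlapped those of Mertk. Transcripts on the RPE list were thus present in RNA labelled as neural retina, and their part in the levels of Mertk, Itgav and Itgb5 was not tested.

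Of 10 microglia and macrophage markers, 5 reached 1 FPKM, and their sum was 17.2 FPKM, led by C1qa at 5.41 FPKM and Aif1 at 4.12 FPKM. Cd68 and Spi1 were listed at 0, and Csf1r, the growth factor receptor of these cells, was at 3.62 FPKM (3.03 to 4.21). Mertk was 1.19 times Csf1r (0.97 to 1.46) and Axl was 0.22 times Csf1r (0.14 to 0.34). Csf1r and both ratios were chosen after the values were seen, and the median of the 10 markers was 0.93 FPKM, below Mertk. All 8 vessel markers reached 1 FPKM, with a sum of 97.3 FPKM but a median of 3.04 FPKM. Kdr, an endothelial receptor, gave 52.2 FPKM of that sum and the pericyte gene Rgs5 27.1 FPKM. Flt1, another endothelial receptor, was at 7.44 FPKM, and Pdgfrb was at 2.34 FPKM. The endothelial genes Cldn5, Pecam1, Tek and Cdh5 lay between 1.00 and 3.75 FPKM. The 5 lens markers summed to 592 FPKM, nearly all from the crystallin genes Cryaa at 427, Crybb2 at 118 and Crygs at 43.9 FPKM. The lens membrane genes Mip and Lim2 were at 1.60 and 1.81 FPKM, on 14 implied fragments each. The part of each of these cell types in the 10 genes' levels was not tested.

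**Figure D5:**
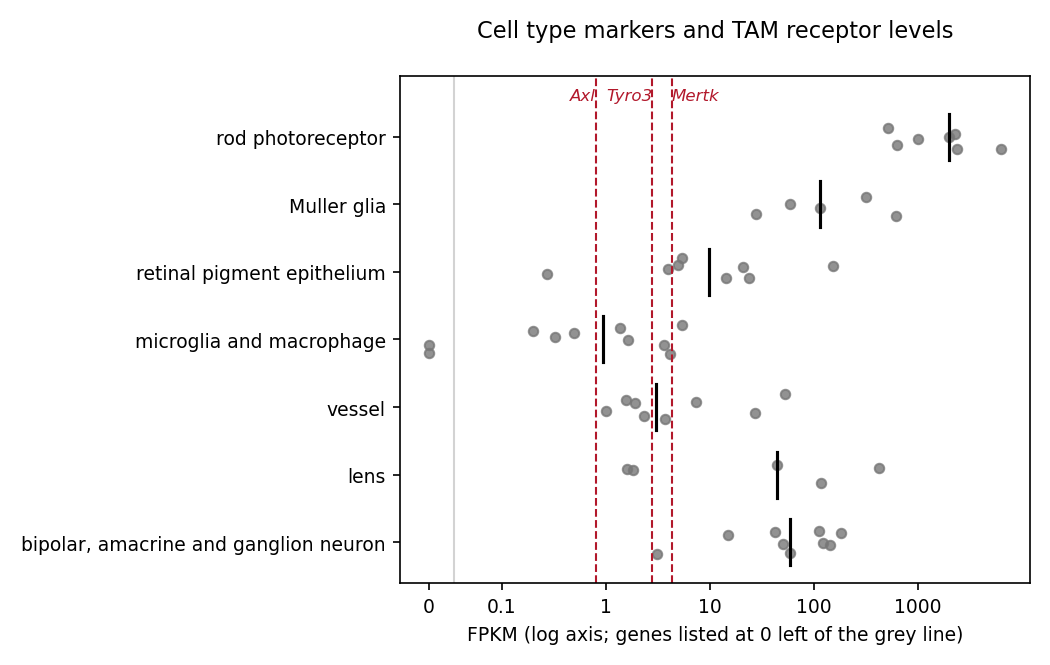
FPKM (log axis) of markers of 7 cell types (grey points, black bars at the medians), with the levels of Axl, Tyro3 and Mertk as dashed red lines and genes listed at 0 left of the grey line. All rod and Müller glia markers lie right of Mertk, at 4.31 FPKM, while the microglia and macrophage markers lie on both sides, with a median of 0.93 FPKM.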

How the data were processed

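RNA from 6 neural retina samples was made into libraries with an Ion Total RNA-seq kit, per the labels' protocols. The authors deposited FPKM values with a lower and an upper bound per gene in Cufflinks format, per the file headers. Cufflinks 2.0.8 and build rn5 are named, per the submitters' processing notes. What aligner and annotation were used, whether libraries were pooled, and the level of the bounds is not given in the sources used here. No column names a sample, so the planned limma fits were not run.

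From the table, implied fragments were taken as the square of FPKM over its standard error, with 2 standard errors per bound. They came within 0.1 of a whole number for 9 of the 10 genes. This was not counted for the other genes, and the figures for Edil3 (7.30) and Tulp3 (37.8) did not. Such figures may not be fragment counts. The sum over all rows was 6124332. Ratios and shares carry 95% intervals from these errors by the delta method. Other genes came from 8 lists of 80 genes, of which 76 matched by exact symbol, 2 in another case and 2 by a RefSeq synonym (Bai1 for Adgrb1, RGD1305422 for Rubcn). All 10 genes are named, with the 2 highest and those at 0 of each list. Further names were chosen after their values were seen. The genes, lists and pairs were chosen with earlier results of these data known. No gene is named for a like pattern, since there is 1 value per gene. Alternatives were pseudocount, rescaling, minimum FPKM and unit. Python 3.11.15, numpy 2.4.6, pandas 2.3.3 and matplotlib 3.10.9 were used.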

Additional observations from a re-analysis of the deposited data

How the results depend on the processing

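The count of 9 genes at 1 FPKM or more became 7 at a minimum of 5 FPKM and 10 at any value above 0. By the lower deposited bound it was 9. Over all 26406 rows, 13900 (52.6%) reached 1 FPKM and 18154 were above 0. The row at rank 9514 stood at 5.02 FPKM and that at rank 9592 at 4.93 FPKM. The lower bound was not counted over all rows. Mertk moved to 12.6 when all rows were rescaled to sum to 1000000, and to 12.7 when rows at 1 FPKM or more were, which changes the unit and no ratio. Implied fragments are not divided by length, which by construction favours long transcripts. With them, the share of Mertk in the 10 genes was 1.97% and that of Tulp1 54.6%. The ratio of Mfge8 to Gas6 turned round, to 0.94. Other ratios by fragments were 9.67 for Mertk to Axl, 7.36 for Gas6 to Pros1, 6.90 for Mfge8 to Pros1, 0.67 for Itgav to Itgb5, 7.41 for Tulp1 to Tub, 0.36 for Mertk to Itgb5, 0.53 for Mertk to Itgav, 6.27 for Gas6 to Mertk, 0.85 for Pros1 to Mertk and 2.12 for Mfge8 to Itgb5. Chosen after seeing the data, the same change gave 4.33 for the TAM ligands to the TAM receptors, 1.55 for Mertk to the sum of Tyro3 and Axl and 2.82 for both integrin subunits to the TAM receptors. With 1 added to each FPKM, ratios left their intervals for Mertk to Axl (2.95), Tyro3 to Axl (2.12), Gas6 to Pros1 (8.18), Mfge8 to Pros1 (11.7) and Gas6 to Mertk (9.36), since a constant shrinks ratios of low genes. Keeping the highest row per symbol changed nothing, because each gene has 1 row, so it says nothing about stability. No paired analysis was possible because no column of values names a sample. For the same reason no replicate was left out. Depth limits Axl most, at 23 implied fragments, and a value of exactly 0 is reported only as listed at 0.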

Other observations

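Genes that act before and after engulfment were read from 2 further lists. All 8 genes of phosphatidylserine exposure reached 1 FPKM, with a median of 3.72 FPKM. Tmem30a, the subunit that the lipid flippases need, stood at 39.9 FPKM (deposited bounds 37.0 to 42.8), and Atp8a2, a flippase of photoreceptors, at 29.1 FPKM (23.9 to 34.2). The scramblase gene Xkr8, which exposes phosphatidylserine on dying cells, was at 1.13 FPKM (0.65 to 1.62), and Ano6, a calcium-activated scramblase, at 2.93 FPKM (2.51 to 3.36). Xkr8 and Ano6 were named after their values were seen.

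All 9 genes of phagosome handling reached 1 FPKM, with a median of 46.4 FPKM. Ctsd, the lysosomal protease that degrades rod opsin in RPE cells, was at 83.1 FPKM (79.2 to 87.0), and Rab7a, the GTPase of late endosomes, at 77.4 FPKM (73.8 to 81.1). Most cells use these genes, so the levels do not place them in a phagocyte.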
